A study of Mus musculus with 12 samples.

Results

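Muscle fibres store fatty acids as triglyceride in lipid droplets, and 9 genes that coat these droplets, build the triglyceride or take it apart were examined in mini-muscle and regular-muscle gastrocnemius, the main calf muscle. They are the perilipins Plin2, Plin3, Plin4 and Plin5, the lipases Pnpla2, Lipe and Mgll, and the acyltransferases Dgat1 and Dgat2. They were chosen by name, as every probe set (the group of probes that reads a transcript) that the platform annotation assigns to exactly 1 of these genes. This gave 17 probe sets of 45101 on the array, for 9 genes of 18194 with a probe set of their own. A gene's values are those of its brightest probe set unless another is named.

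The 12 arrays came from 12 male mice of generation 37 of lines bred for high voluntary wheel running, on average 84 days old (79 to 86 days). The 6 mini-muscle animals belonged to HR line #3 and have the inherited small-muscle phenotype of these lines, in which hindlimb muscles weigh less. RNA of their left and right muscles was pooled within each animal. The 6 regular-muscle animals belonged to HR line #8 and gave muscle of a single limb, left or right. Phenotype, line and limb pooling divide the arrays in the same way and cannot be told apart, and each phenotype is represented by 1 line. The labelled tissue was borne out by bright myosin heavy chain genes, such as fast Myh4 at 16.04 ± 0.38 in mini-muscle and 17.37 ± 0.14 in regular muscle (SD). Levels are given as log2 of the deposited MAS5 intensity, differences are mini-muscle minus regular-muscle, and n = 6 arrays per group throughout. Whether a transcript differs because there is more of it per fibre or because more fibres contain it cannot be told apart in whole muscle.

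Triglyceride is made by adding a last fatty acid to diacylglycerol, a step that DGAT1 and DGAT2, which are unrelated in sequence, can both catalyse. It is broken down in sequence, by ATGL (the product of Pnpla2) to diacylglycerol, by hormone-sensitive lipase (Lipe) to monoacylglycerol and by monoacylglycerol lipase (Mgll) to glycerol and a fatty acid. Perilipins cover the droplet and control the access of these lipases. Perilipin 2 is found in most cells, perilipin 3 moves between cytosol and droplets, perilipin 4 is abundant in adipocytes and muscle, and perilipin 5 is typical of oxidative tissues such as heart and slow muscle, where it brings droplets next to mitochondria.

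Of the 9 genes, 6 were higher in mini-muscle and 0 were lower (limma, Benjamini-Hochberg adjusted p under 0.05 over all genes tested). The largest rises were those of Plin5, 2.27-fold, and Dgat2, 1.91-fold, followed by Mgll (1.45-fold), Pnpla2 (1.41-fold), Plin3 (1.36-fold) and Plin2 (1.33-fold). Plin4, Lipe and Dgat1 did not pass, with differences of 0.15 to 0.17. Among all 9097 genes tested, 14.9% were called higher and 11.8% lower (26.7% in either direction), and the median difference was 0.03, against 0.44 over the 9 genes. All 9 genes lay above the limit for dim genes (log2 8.56, the median of the gene means). The groups did not overlap for 3 of the 9, Plin5, Mgll and Dgat2, where every mini-muscle array lay above every regular-muscle array, as it did for 6.86% of all genes tested.

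**Figure D1:**
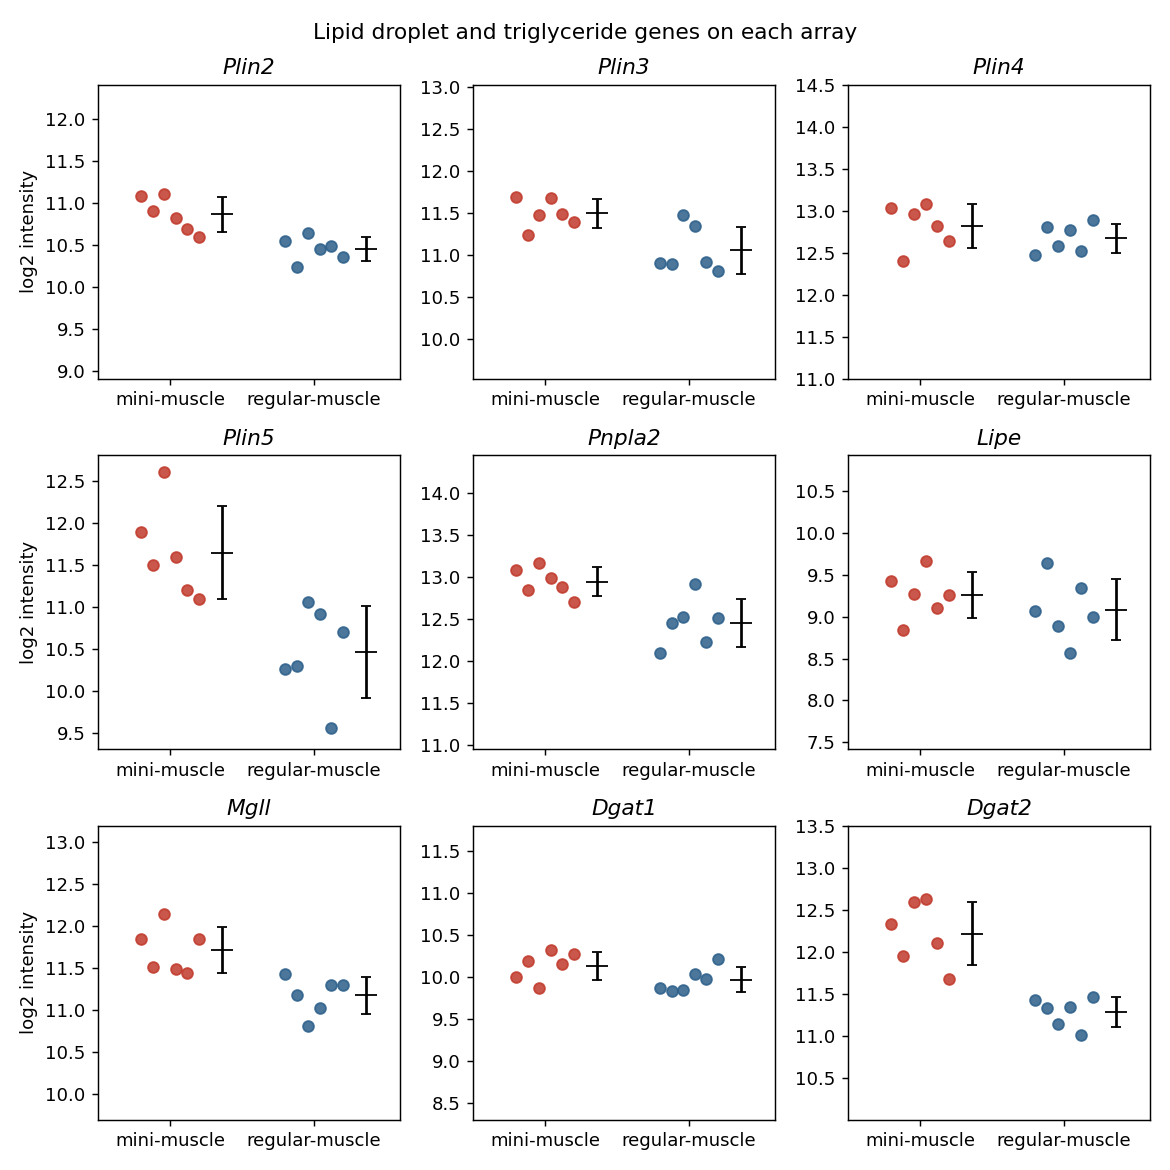
Log2 intensity of the 9 genes (brightest probe set of each) on every array, mini-muscle in red and regular-muscle in blue, with the mean and SD in black; each panel spans the same log2 range. The 2 groups separate completely for Plin5, Mgll and Dgat2 and overlap most for Plin4, Lipe and Dgat1.

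Plin5 had the widest range among the coat proteins. On the mini-muscle arrays its log2 intensity was 11.09 at the lowest, 11.55 in the median and 12.60 at the highest, against 9.56, 10.50 and 11.05 on the regular-muscle arrays. The lowest mini-muscle array, replicate 6, thus lay just above the highest regular-muscle array, replicate 3, and each group spread over more than a log2 unit. The difference was 1.18 (SE 0.25, 95% interval 0.66 to 1.70, adjusted p = 0.0015). Its within-group SD of 0.55 was larger than that of 95.3% of the genes tested, the largest of the 9 genes, so that its fold change is the least precisely known of the 6 that rose. A dimmer probe set of Plin5 differed by 1.01 (adjusted p = 0.014 over all 34958 single-gene probe sets), although there regular-muscle replicate 4 overlapped the mini-muscle range.

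Plin2 and Plin3 rose by similar and smaller amounts. Plin2 lay at 10.59, 10.86 and 11.11 (lowest, median and highest) in mini-muscle, against 10.23, 10.46 and 10.64 in regular muscle. Only the dimmest mini-muscle array, replicate 6, fell inside the regular-muscle range. The difference was 0.41 (SE 0.11, adjusted p = 0.011). Plin3 lay at 11.24, 11.49 and 11.69 in mini-muscle, against 10.81, 10.91 and 11.47 in regular muscle. Here regular-muscle replicates 3 and 4, at 11.47 and 11.35, stood among the mini-muscle arrays, while the other 4 were at 10.92 or lower. The difference was 0.44 (SE 0.12, adjusted p = 0.013), and the call was lost when each array was centred on its median (difference 0.45, adjusted p = 0.058).

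The groups of Plin4 overlapped, and the mini-muscle arrays were spread more widely (SD 0.26, against 0.17 in regular muscle). Mini-muscle replicates 1, 3 and 4, at 13.04, 12.96 and 13.09, lay above every regular-muscle array, and replicate 2, at 12.40, lay below every one. It lay at 12.40, 12.89 and 13.09 in mini-muscle, against 12.47, 12.68 and 12.89 in regular muscle. Both the lowest and the highest of the 12 values belonged to mini-muscle arrays, replicates 2 and 4. The difference of 0.15 had a 95% interval of -0.09 to 0.39 (adjusted p = 0.37), which holds no rise as large as the difference of Plin5.

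Plin4 and Plin5 are direct neighbours on chromosome 17 in the RefSeq gene order (assembly GRCm38.p6), on the same strand, and Plin3 lies on the same chromosome. The difference between their shifts was tested on each array, as Plin4 minus Plin5. It was 0.36 to 1.62 on mini-muscle arrays and 1.52 to 2.96 on regular-muscle arrays, and 4 of the 6 mini-muscle arrays lay below all regular-muscle arrays. The shift of Plin4 was smaller than that of Plin5 by 1.03 (95% interval of the difference -1.67 to -0.40; exact permutation test, two-sided, p = 0.0065, adjusted p = 0.013 over the 6 pairs tested). Plin2 also shifted less than Plin5 (difference -0.77, exact p = 0.0022, the smallest the test can give, adjusted p = 0.013), with all 6 mini-muscle arrays below all regular-muscle arrays. Plin3 and Plin2 did not differ detectably in their shifts (0.03, 95% interval -0.27 to 0.32, exact permutation adjusted p = 0.84). The 6 pairs were chosen with earlier results of these data known, so their p-values are not those of an independent test. The dimmer probe set of Plin5 was an alternative chosen after the data were seen. With it the differences of Plin4 and Plin2 from Plin5 were -0.86 and -0.59 and missed the threshold (exact permutation adjusted p = 0.052 and 0.074).

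**Figure D2:**
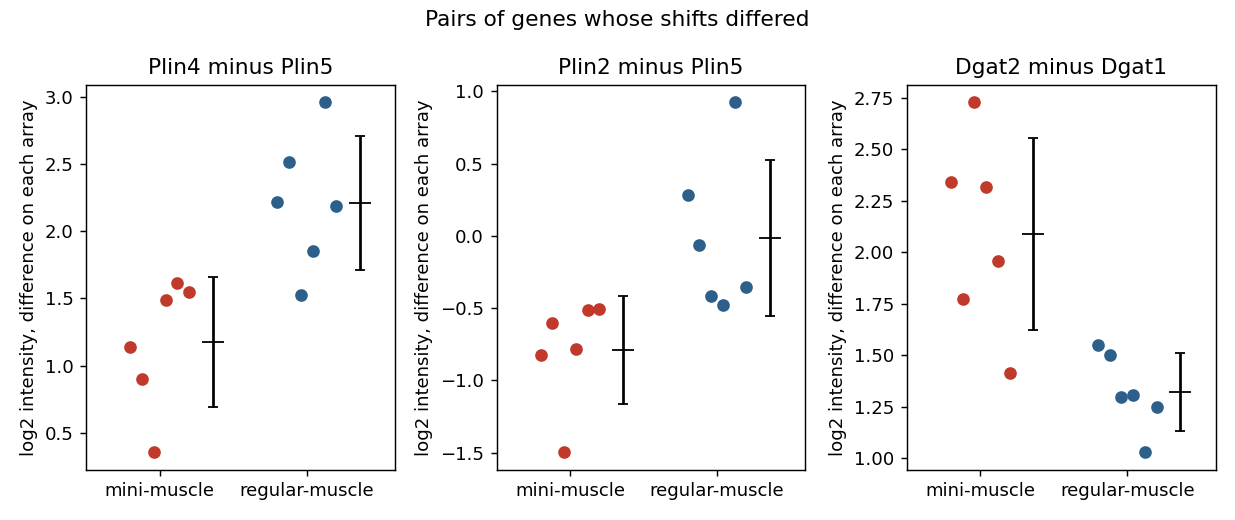
Log2 intensity of a gene minus that of its partner on each array, mini-muscle in red and regular-muscle in blue, with mean and SD in black, for Plin4 minus Plin5, Plin2 minus Plin5 and Dgat2 minus Dgat1. Only the change between groups is compared, since intensities of different probe sets are not on a common scale; mini-muscle arrays lie lower in the pairs with Plin5 and higher for Dgat2 minus Dgat1.

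The 250 bases before the annotated start of each perilipin gene are shown to compare the neighbours that shifted differently with the other perilipins. They are taken from RefSeq (GRCm38.p6), read 5′ to 3′ on the gene's own strand, and for Plin5 from the more upstream of its 2 annotated starts. Capitals mark the GC box GGGCGG and the TATA-like run CTATAAGG on either strand.
Plin5, chr17:56117549-56117798, minus strand: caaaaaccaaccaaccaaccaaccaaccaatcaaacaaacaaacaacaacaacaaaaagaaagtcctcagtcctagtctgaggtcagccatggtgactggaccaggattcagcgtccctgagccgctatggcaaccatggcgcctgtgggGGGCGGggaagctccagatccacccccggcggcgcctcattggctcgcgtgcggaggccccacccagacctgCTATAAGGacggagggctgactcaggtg
Plin4, chr17:56109783-56110032, minus strand: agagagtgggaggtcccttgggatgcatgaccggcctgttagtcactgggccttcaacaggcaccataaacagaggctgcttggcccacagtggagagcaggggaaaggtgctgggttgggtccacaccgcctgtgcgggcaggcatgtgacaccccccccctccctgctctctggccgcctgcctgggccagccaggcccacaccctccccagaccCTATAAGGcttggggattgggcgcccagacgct
Plin2, chr4:86670060-86670309, minus strand: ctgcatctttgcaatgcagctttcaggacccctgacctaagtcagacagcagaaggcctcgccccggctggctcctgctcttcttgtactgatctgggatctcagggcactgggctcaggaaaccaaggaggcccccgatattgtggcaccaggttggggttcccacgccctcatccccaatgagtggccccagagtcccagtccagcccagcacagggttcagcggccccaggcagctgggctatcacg
Plin3, chr17:56290512-56290761, minus strand: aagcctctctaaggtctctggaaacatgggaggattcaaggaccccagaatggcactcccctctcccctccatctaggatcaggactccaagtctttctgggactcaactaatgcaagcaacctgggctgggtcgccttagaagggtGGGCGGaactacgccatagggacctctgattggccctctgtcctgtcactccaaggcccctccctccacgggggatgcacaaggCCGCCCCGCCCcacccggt
Plin4 and Plin5 both held CTATAAGG, beginning 33 and 28 bases before the start, a run noticed in these sequences and then searched for; 0.344% of the 32851 windows of this length hold it. A GC box stood 100 bases before the upstream start of Plin5 and 103, 19 and 14 bases before the start of Plin3. None was found in the windows of Plin2 and Plin4, and 32.7% of all windows hold one. The window of the other annotated Plin5 start lacked CTATAAGG and held GC boxes 239 and 53 bases before that start. Perilipin genes are known targets of the nuclear receptor PPAR. Its element was searched for as a direct repeat of AGGTCA with a single free base (N) between, and more loosely as the same repeat of AGGNCA, and the element of the estrogen-related receptors as TCAAGGTCA, on both strands. They are held by 0.0335%, 0.338% and 0.387% of all windows, and by 0 of the 10 windows available for 7 of the 9 genes. Matches this rare are unlikely in 10 windows of 250 bases, so the search cannot show whether these genes lack such elements. Windows of Dgat1 and Dgat2 were not analysed here.

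Among the lipases, the enzymes of the initial and the last step rose and Lipe did not pass. Pnpla2 lay at 12.70, 12.93 and 13.17 in mini-muscle, against 12.09, 12.48 and 12.91 in regular muscle. Regular-muscle replicate 4, at 12.91, overlapped the mini-muscle arrays, and the other 5 were all lower than any of them. The difference was 0.49 (SE 0.12, adjusted p = 0.0045). A dim probe set of Pnpla2, at a mean of 6.25, ranged from 2.96 to 7.88 in mini-muscle and from 5.23 to 7.67 in regular muscle and carries no usable difference (0.10, 95% interval -1.64 to 1.84). Averaged with it, Pnpla2 lost its call (0.30, adjusted p = 0.69).

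Mgll lay at 11.45, 11.68 and 12.15 in mini-muscle, against 10.81, 11.24 and 11.43 in regular muscle. The groups did not overlap, although regular-muscle replicate 1 lay only just below mini-muscle replicate 5. The difference was 0.54 (SE 0.13, adjusted p = 0.0046). Mgll was read by 3 further probe sets. A dimmer one differed by 0.69 and also separated the groups (adjusted p = 0.0087 over all single-gene probe sets). The next, at 9.95 to 10.96 in mini-muscle and 9.64 to 10.41 in regular muscle, differed by 0.38 and did not pass (adjusted p = 0.24). The last was dim, at a mean of 4.93. With the mean of all 4, Mgll lost its call (0.42, adjusted p = 0.18).

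Lipe lay at 8.84, 9.26 and 9.66 in mini-muscle, against 8.57, 9.03 and 9.63 in regular muscle, so the groups covered nearly the same range. The difference was 0.17 (SE 0.19, 95% interval -0.23 to 0.58, adjusted p = 0.56). At this spread a rise as large as that of Pnpla2 is within the interval. The shift of Lipe minus that of Pnpla2 was -0.32 (95% interval -0.90 to 0.26, exact permutation adjusted p = 0.37), and that of Mgll minus Pnpla2 was 0.05 (95% interval -0.43 to 0.53, exact permutation adjusted p = 0.84), so that the 3 lipases were not shown to differ from each other in these comparisons.

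The acyltransferases differed from each other. Dgat2 lay at 11.69, 12.23 and 12.64 in mini-muscle, against 11.01, 11.34 and 11.47 in regular muscle. The groups did not overlap, and the regular-muscle arrays lay closer together (SD 0.18) than the mini-muscle arrays (SD 0.37). The difference was 0.93 (SE 0.14, 95% interval 0.63 to 1.23, adjusted p = 9.5e-05), the smallest adjusted p of the 9 genes. Its other probe set differed by 0.84, also without overlap (adjusted p = 0.0020 over all single-gene probe sets). Dgat1 lay at 9.87, 10.17 and 10.32 in mini-muscle, against 9.84, 9.93 and 10.22 in regular muscle, with wide overlap. Its difference was 0.17 (95% interval -0.08 to 0.41, adjusted p = 0.33). The shift of Dgat2 exceeded that of Dgat1 by 0.77 (95% interval 0.31 to 1.22, exact permutation test, p = 0.0065, adjusted p = 0.013), with 5 of 6 mini-muscle arrays above all regular-muscle arrays. With the dimmer probe set of Dgat2 the excess was 0.67 (exact permutation adjusted p = 0.052). This pair, too, was chosen with earlier results of these data known.

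**Figure D3:**
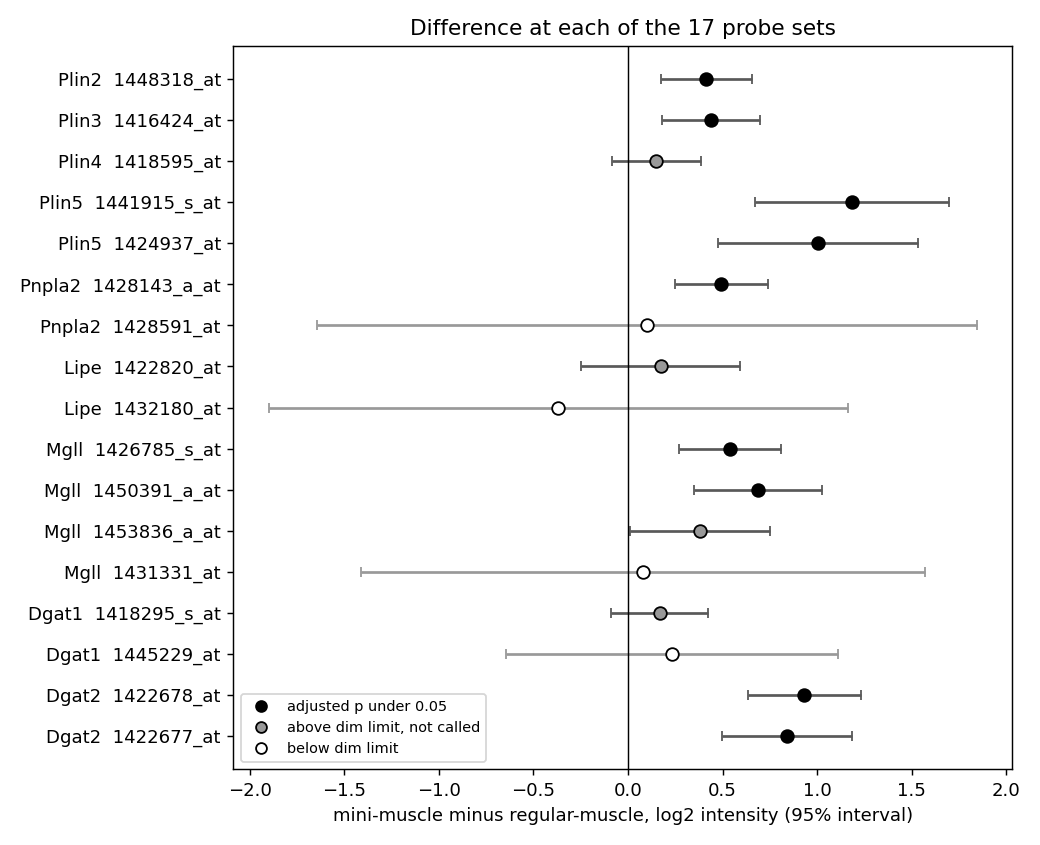
Difference (mini-muscle minus regular-muscle, log2) with its 95% interval at all 17 probe sets of the 9 genes, from a fit over all single-gene probe sets. Filled black points passed an adjusted p of 0.05, grey points did not, and open points lie below the dim limit; the 4 open points have intervals too wide to read.

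Of the 17 probe sets, 13 lay above the dim limit and 9, of 6 genes, were called higher. Over all 34958 single-gene probe sets the share was 5.00%, but these include the dim ones, which are harder to call. Among genes above the dim limit 14.9% were called higher. None of the 17 was called lower, against 3.91% of all single-gene probe sets. The 4 dim probe sets, one each of Pnpla2, Lipe, Mgll and Dgat1, differed by -0.37 to 0.23. The probe sets used for Plin5, Mgll and Dgat1 are of the _s class, which can match transcripts of more than 1 gene.

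The mini-muscle arrays differed in how many of the 9 genes were high on them. On replicates 1 to 6, the number of genes above their own mini-muscle median was 8, 2, 7, 7, 1 and 2 of 9. Dgat2 was at 12.34, 11.96, 12.60, 12.64, 12.11 and 11.69 on these arrays, and Plin5 at 11.90, 11.50, 12.60, 11.60, 11.20 and 11.09. On the regular-muscle arrays the count was 2 to 6 genes. The 9 genes share the array in such counts, so these are not independent observations. By a distance between array profiles, each scaled to mean 0 and SD 1 over the 12 arrays, the genes most like Dgat2 were Pdk4 (0.75), a kinase that inhibits pyruvate dehydrogenase, the slow myosin light chain gene Myl3 (0.92) and Smim20 (0.95), where the median over all genes tested was 4.56. These distances run over both groups and so include the difference between them.

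The enzymes that supply DGAT with its substrate moved in part in the same direction. Of 11 genes measured above the dim limit out of 15 listed, 5 were higher and 1 was lower, with a median of 0.18. The shares over all genes tested were 14.9% and 11.8%. Agpat2 and Agpat3, which add the middle fatty acid, rose by 1.01 (9.80 to 10.99 in mini-muscle, 8.38 to 9.74 in regular muscle, adjusted p = 0.0032) and 0.60 (11.29 to 11.97 against 10.56 to 11.28, adjusted p = 0.0040), both without overlap. The other 3 probe sets of Agpat3 above the dim limit differed by 0.70, 0.26 and 0.24 and did not pass over all single-gene probe sets. Gpat4, a glycerol-3-phosphate acyltransferase of the endoplasmic reticulum, rose by 0.72 (adjusted p = 0.0096). The remaining rises, named after their values were seen, were Lpin2 (1.32, SE 0.43, adjusted p = 0.028) and Gpat3 (0.43, adjusted p = 0.035). Lpin2 lost its call in 4 and Gpat3 in 6 of the 12 fits without 1 array. Neither passed in the fit over all single-gene probe sets (adjusted p = 0.063 and 0.098). Agpat5, also named after its values were seen, was not called by its brightest probe set (-0.018). A dimmer one above the dim limit differed by 1.535 and passed in that fit (adjusted p = 0.016). In the opposite direction, Gpd1, which makes glycerol 3-phosphate from a glycolytic intermediate, fell by 0.83 (11.38 to 12.54 in mini-muscle, 12.45 to 13.24 in regular muscle, adjusted p = 0.0013). Its second-brightest probe set fell by 0.95, and a further one did not pass (-0.23). With the average over all probe sets of each gene, Gpd1 (-0.33, adjusted p = 0.47) and Gpat4 (0.64, adjusted p = 0.16) lost their calls. Each average takes in a probe set below the dim limit, at a mean of 5.13 for Gpd1 and 7.22 for Gpat4.

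**Figure D4:**
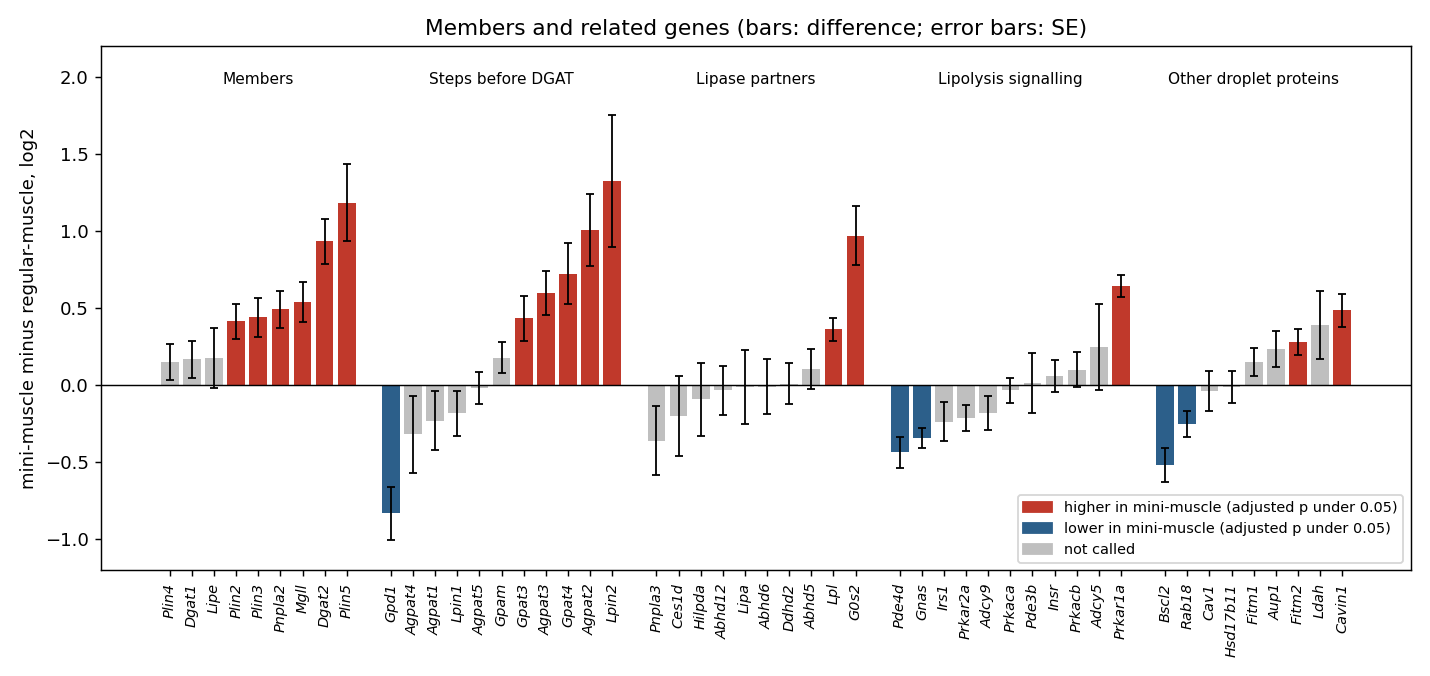
Difference (mini-muscle minus regular-muscle, log2) with its SE for the 9 members and for the genes above the dim limit in 4 related lists, red where called higher, blue where called lower and grey where not called. All calls among the members and the lipase partners are rises, as are 5 of the 6 among the steps before DGAT, and calls go both ways in the signalling and droplet protein lists.

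ATGL is held in check by G0S2, an inhibitory protein, and activated by ABHD5. G0s2 was 1.96-fold higher, at 10.64, 11.19 and 11.96 in mini-muscle (lowest, median and highest), against 10.09, 10.24 and 10.74 in regular muscle. Regular-muscle replicate 3 alone overlapped the mini-muscle range. The difference was 0.97 (SE 0.19, adjusted p = 8.4e-04). Abhd5 differed by 0.10 (95% interval -0.17 to 0.38, adjusted p = 0.61). Lpl, the lipase that frees fatty acids from circulating lipoproteins, rose by 0.36 (16.26 ± 0.09 in mini-muscle and 15.90 ± 0.16 in regular muscle, SD, adjusted p = 0.0012). Of the 10 partners and other lipases measured, these 2 rose and 0 fell (14.9% and 11.8% of all genes tested), with a median of -0.01.

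The genes listed for hormonal control of lipolysis cover the cyclic AMP pathway, which activates the lipases, and the insulin receptor Insr and its substrate Irs1, whose signal restrains them. Of 11 measured, 1 rose and 2 fell (14.9% and 11.8% of all genes tested), and the median was -0.03. Prkar1a, a regulatory subunit that holds protein kinase A inactive, was 1.56-fold higher, at 13.38 to 13.60 in mini-muscle and 12.71 to 12.99 in regular muscle (difference 0.64, SE 0.07, adjusted p = 3.5e-06), and a dimmer probe set rose by 1.05. Gnas, the stimulatory G protein subunit, fell by 0.34 (adjusted p = 7.1e-04) and Pde4d, a phosphodiesterase that degrades cyclic AMP, by 0.44 (adjusted p = 0.0034), both without overlap; every mini-muscle array lay below every regular-muscle array for 6.11% of all genes tested. Those 2 calls rest on the brightest probe sets, the only ones of each gene above the dim limit. With the average over all probe sets of each gene, dim ones included, Gnas differed by 0.09 and Pde4d by -0.11.

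Other droplet proteins split evenly, with 2 of 9 higher and 2 lower (14.9% and 11.8% of all genes tested) and a median of 0.15. Cavin1, a coat protein of caveolae that is also found on droplets, rose by 0.48 without overlap (adjusted p = 0.0019), and Fitm2, which helps droplets bud from the endoplasmic reticulum, by 0.28 (adjusted p = 0.018). Bscl2, seipin, an assembly protein of the droplet, fell by 0.52 (adjusted p = 0.0020). Fitm2 lost its call with arrays centred on their medians (0.29, adjusted p = 0.089), and Bscl2 with the average over its probe sets (-0.44, adjusted p = 0.17). The average of Bscl2 takes in a dim probe set, at a mean of 6.76. Rab18, a small GTPase of droplets, fell by 0.25 (adjusted p = 0.038), a call lost in 8 of the 12 fits without 1 array. Plin1, the adipocyte perilipin, was not analysed here.

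Fat cells between the fibres also express these genes, above all Lipe, Plin4 and Dgat2. Of 12 adipocyte markers, 4 that are not droplet proteins lay above the dim limit, and their mean score was used as a covariate. Adipoq, adiponectin, had log2 intensities of 10.20, 11.36 and 11.61 in mini-muscle, against 11.09, 11.39 and 12.18 in regular muscle (difference -0.41, adjusted p = 0.22). Fabp4 rose by 0.31 (adjusted p = 0.031) and Retn, resistin, fell by 0.55 (adjusted p = 0.036), both named after their values were seen. Cidec, at a mean of 7.87, was dim. The summed intensity of the 4 markers was 33791 to 50245 in mini-muscle and 30163 to 42391 in regular muscle. That sum mostly follows Fabp4, the brightest of the 4 (mean log2 15.24 in mini-muscle, Adipoq 11.09). Over all single-gene probe sets no probe set of Fabp4 passed, and the dimmer ones above the dim limit differed by 0.13 and 0.28. The mean score, which weighs the 4 markers equally, differed by -0.19 (exact permutation test, two-sided, p = 0.30). With that score as a covariate the same 6 genes passed, Plin5 at 1.16 and Dgat2 at 0.98, and the difference of Lipe was 0.32 (adjusted p = 0.23). Fabp4 and Retn moved in opposite directions, so the score cannot measure fat cell content. The part of fat cells in these results was not tested. None of the markers was listed at 0 on any array.

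The muscles also differed in fibre markers, which moved with the groups and whose part in these results was not tested. For the counts that follow, 14.9% of all genes tested were called higher and 11.8% lower. All 8 slow-fibre genes rose, with a summed intensity of 318196 to 438353 in mini-muscle and 181616 to 256782 in regular muscle; Myh7, the slow myosin heavy chain, was at 15.63 ± 0.19 in mini-muscle and 14.64 ± 0.26 in regular muscle (SD). Of 8 fast-fibre genes 4 fell, with sums of 878022 to 1073035 in mini-muscle and 1130576 to 1387085 in regular muscle. Fibroblast markers fell in 6 of 8 genes, with sums of 42841 to 70294 in mini-muscle and 75062 to 107588 in regular muscle, and macrophage markers in 4 of 5, with sums of 3927 to 5430 in mini-muscle and 5134 to 8484 in regular muscle. Of 7 endothelial markers 1 rose, with sums of 7337 to 10492 in mini-muscle and 6602 to 10229 in regular muscle. As a sign of RNA integrity, the 3′ minus 5′ signal of the Gapdh control was -0.19 to -0.095 in mini-muscle and -0.24 to -0.15 in regular muscle, and that of the beta-actin control was -0.77 to 0.017 in mini-muscle and -0.61 to 0.024 in regular muscle. For the transferrin receptor control it was 1.38 to 2.10 in mini-muscle and 1.02 to 2.57 in regular muscle.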

How the data were processed

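The authors deposited 1 linear intensity per probe set and array. The submitters' processing notes name MAS5; its version and settings are not stated there or in the labels. Per the labels' protocols, 5 µg of total RNA per array went into the labelled cRNA. In the deposited intensities each array had a mean of 800.0 after leaving out the lowest and highest 2%, so all were scaled to 1 target. Arrays have no sequencing depth, and their number limits the precision.

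Probe sets were named through the platform annotation: 34958 had a single gene, 932 several and 9211 none. Intensities were taken to log2 with no offset. A gene's brightest probe set, by its mean over all 12 arrays, stood for it, and genes below the median gene mean (log2 8.56) were left out, which left 9097. Groups were compared with limma 3.58.1 in R 4.3.3 (lmFit, eBayes with an intensity trend, two-sided), with Benjamini-Hochberg adjustment over all genes tested; all adjusted p-values of genes are from this fit unless a fit over all single-gene probe sets or an exact permutation test over 924 assignments of arrays is named. Replicate numbers only name arrays, and each array is a different animal.

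The members, gene lists, pairs and rules were chosen with earlier results of these data known. Named genes are all members, up to 4 called genes of each related list by adjusted p, and fixed partners and markers, of which Cfd and Plin1 were not analysed here. Alternatives changed the normalization between arrays, the offset, the probe set choice, the dim filter, the variance model, an adipocyte score as covariate and the arrays used. On simulated data for this comparison (9097 genes, 200 changed), 67% of 1.5-fold and 89% of 2-fold changes were called, with 10 false among 166 calls.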

Additional observations from a re-analysis of the deposited data

Results flagged for a closer look

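Dixon's test for a single stray array was applied to 72 groups of 6 arrays, each a probe set of a member or a named related gene in 1 muscle type, and 6 gave a flag, where chance gives about 1 in 20, or 3.6. Mini-muscle replicate 3 was high for a dimmer probe set of Mgll (11.83, next 11.24), and low for Gpd1 (11.38, next 12.15) and Myh4 (15.31, next 16.07). Regular-muscle replicate 4 was low for Gpd1 (12.45, next 13.08) and for Bscl2 (10.47, next 10.64), and regular-muscle replicate 3 was high for G0s2 (10.74, next 10.32). Without mini-muscle replicate 3 the same count of 6 members was called.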

How the results depend on the processing

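Of the 9 genes, 6 were called higher and 0 lower without any 1 of the 12 arrays (6 to 6 higher, 0 to 0 lower), and leaving out 1 array changed no call of a member. The count of higher genes was 5 with arrays centred on their medians, where Plin3 missed the threshold (adjusted p = 0.058), and 4 when a gene's probe sets were averaged, where Pnpla2 and Mgll missed it. It was 6 after quantile normalization, with an offset of 64, without a dim filter, over the brightest genes, without an intensity trend, with array weights and with the adipocyte score. Lipe fell below the dim limit with averaged probe sets and over the brightest genes and was not tested there. Over all genes the count of calls was 1641 with centred arrays and 1543 with averaged probe sets, against 2426. With averaged probe sets Gnas differed by 0.092, against -0.34. That average takes in its other probe sets, which all lay below the dim limit and differed by -0.33 to 0.66. The cause was not tested. Without 1 array the shift of Mgll minus Pnpla2 was -0.076 to 0.17 and that of Plin3 minus Plin2 was -0.023 to 0.084, so neither has a settled sign. With the dimmer probe sets of Plin5 and Dgat2, chosen after seeing the data, the shifts of Dgat2 minus Dgat1 (0.67), Plin2 minus Plin5 (-0.59) and Plin4 minus Plin5 (-0.86) kept their direction and missed the threshold; the cause was not tested. The signal of the 4 dim probe sets is too low to show a difference. No paired analysis was possible because the replicate numbers only name arrays of different animals.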
